A study of Homo sapiens with 6 samples.

Results

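RC3H1 and 9 other genes for proteins that promote the decay of mRNA are described here, 10 of the 19610 genes in the count table. They were found by gene symbol, all 10 have a row, and all 10 passed the filter on low counts. RC3H1 was chosen for its higher level in the SGC707 libraries in this same comparison, so its values are a description and carry no test. The other 9 were selected by their role beside RC3H1: its paralog RC3H2, the ZFP36 family (ZFP36, ZFP36L1 and ZFP36L2), the regnase-type genes ZC3H12A and N4BP1, and the deadenylase subunits CNOT1, CNOT6 and CNOT7.

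The cells were SH-SY5Y, an established human neuroblastoma line, labelled wild type. In 3 libraries the cells had been given DMSO, the solvent, and in 3 they had been given SGC707, which blocks the protein arginine methyltransferase PRMT3; both groups have replicates A, B and C, and values are listed in that order. The question behind the comparison concerned the microRNA MIR448, the receptor gene IGF1R and tau phosphorylation under the inhibitor. The labels used here state no dose or duration and do not say whether replicates were separate cultures, so p-values cover only the spread of these libraries, which may be technical.

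Many short-lived mRNAs carry signals in their 3′ untranslated region (3′UTR) that mark them for destruction. The Roquin proteins, encoded by RC3H1 and RC3H2, recognise small stem-loops there, and the ZFP36 proteins recognise AU-rich elements. Both recruit the CCR4-NOT complex, which shortens the poly(A) tail: CNOT1 is its scaffold, and CNOT6 and CNOT7 are catalytic subunits. Regnase-1, the product of ZC3H12A, is an endonuclease that cuts stem-loops of the kind Roquin binds. N4BP1 carries a related nuclease domain. The Roquin, ZFP36 and regnase-type proteins are best known for restraining inflammatory mRNAs in immune cells, and several of them act on each other's transcripts.

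The members' own 3′UTRs were searched on the transcript strand for UAUUUAUU, a core AU-rich element, because it is the signal that 3 of the members read. At least 1 copy was present in 7 of the 10 members. Among 12016 tested genes with an annotated 3′UTR the share was 21.1%. Among the 7949 whose 3′UTR length lies between the shortest and longest of the members (713 to 7507 bases) it was 26.3%. This range is not a match of lengths, and the median 3′UTR of tested genes was 1380 bases, so the shares do not control for length. RC3H1 holds 1 copy in a 3′UTR of 7507 bases and RC3H2 holds 3 in 5071 bases. ZFP36 holds 1, ZFP36L1 and ZFP36L2 hold 2 each, and N4BP1 and CNOT7 hold 1 each. CNOT1, CNOT6 and ZC3H12A have none. The sites below are from GENCODE transcripts, 5′ to 3′ as RNA, with the element in capitals, the chromosome and the position in the 3′UTR; that of CNOT7 is not shown.
RC3H1, chromosome 1, position 5021: gauuuuuaUAUUUAUUuguugcuu
RC3H2, chromosome 9, position 411: aguuaacuUAUUUAUUucuauuuu
RC3H2, chromosome 9, position 1908: agacauuuUAUUUAUUucacucug
RC3H2, chromosome 9, position 3333: aucauagcUAUUUAUUcuaguaag
ZFP36, chromosome 19, position 508: gacgacuuUAUUUAUUcuaauaug
ZFP36L1, chromosome 14, position 1180: ucaaaacgUAUUUAUUgccaaacu
ZFP36L1, chromosome 14, position 1439: uguuggauUAUUUAUUuuagaaau
ZFP36L2, chromosome 2, position 854: auuuaacuUAUUUAUUaucuugug
ZFP36L2, chromosome 2, position 1090: guauguaaUAUUUAUUucauuaau
N4BP1, chromosome 16, position 1051: agccccugUAUUUAUUuucccugu

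A match to the seed of miR-448, the microRNA the study asked about, was searched for in the same 3′UTRs. The mature microRNA (RefSeq, GRCh38.p14, chromosome X, 114823524 to 114823545, plus strand) is shown with its seed, bases 2 to 8, in capitals, followed by the only match among the members. That match, AUAUGCA, lies in RC3H2 at position 2116 of the 3′UTR. Of all 12016 genes, 14.4% hold a match, as do 18.2% of the 7949 within the members' range of 3′UTR length. RC3H1 holds none. Both motifs are matches of letters and not measured binding sites, and MIR448 itself was not analysed here.
hsa-miR-448: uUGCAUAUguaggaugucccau
RC3H2, chromosome 9, position 2116: caaaaaggAUAUGCAaaccaguc

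Facts of the libraries bear on the values that follow. Total counts were 11658728 to 15437602, and counts on nuclear genes were 6066305 to 6327895 with DMSO and 7559322 to 8999358 with SGC707. Mitochondrially encoded transcripts took 46.7% to 60.7% of counts with DMSO and 24.3% to 37.7% with SGC707, so levels are given as CPM after TMM scaling (normalised CPM, counts relative to the effective library size). SGC707 C stood apart in GC content: the Spearman correlation across genes of its deviations with transcript GC was -0.76, against -0.13 to 0.53 in the other 5 libraries. Libraries of the same group all differed by more than counting noise (chi-square divided by its degrees of freedom 12.4 or more). Of 10 adrenergic neuroblastoma markers, 9 were expressed, and TH was at 0 in every library. Of these 9, 8 had negative log2 fold changes and 1 positive (median -0.33), with no edgeR adjusted p under 0.142. The summed level of these 9 was 2916 to 3864 normalised CPM with DMSO and 2033 to 2738 with SGC707. In contrast, 6 Schwann-cell markers summed to at most 32 counts in a library, 6 epithelial markers to 52 and 6 leukocyte markers to 12, with SOX10, GFAP, KRT5 and PTPRC at 0 in every library. Of 8 mesenchymal-state markers, 6 were expressed and summed to 300.0 to 365 normalised CPM with DMSO and 331 to 359 with SGC707, with PRRX1 at 0 or 1 count. Of these 6, TWIST1 and VIM held most of the counts, while 4 had negative log2 fold changes (median of the 6 -0.30), and SNAI2, FN1 and COL1A1 were lower at an unadjusted p under 0.05 in edgeR, with no adjusted p under 0.295. The part of the mitochondrial share, the GC trend and the neuroblastoma and mesenchymal markers in the values below was not tested.

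**Figure D1:**
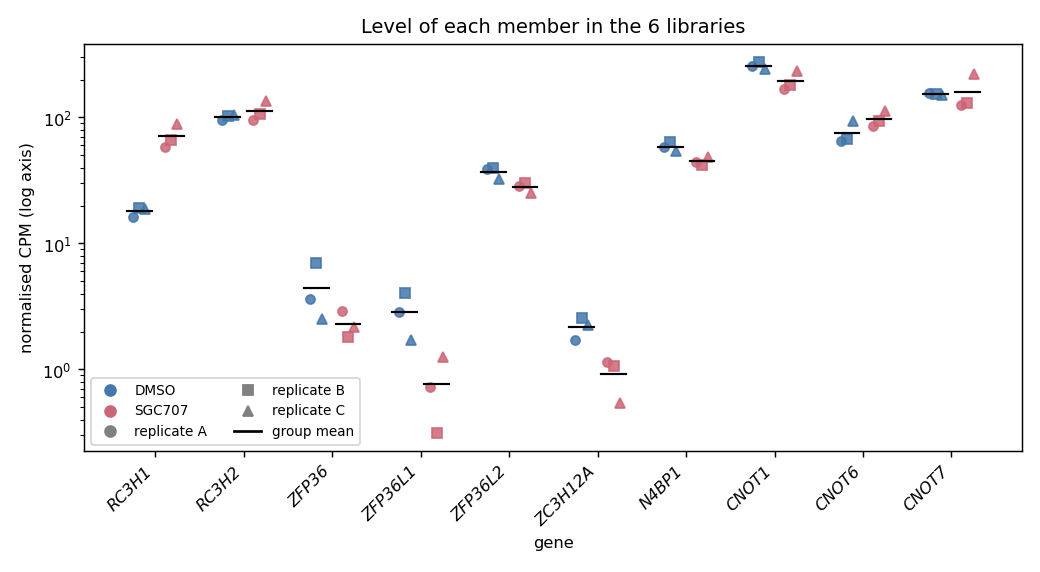
Level of the 10 members in each of the 6 libraries, in normalised CPM on a log axis, with symbols for the replicate letter and black lines for group means (n = 3). RC3H1 has its SGC707 libraries at 58.4 to 88.1 and its DMSO libraries at 16.2 to 19.3, while ZFP36, ZFP36L1 and ZC3H12A lie below 10 in every library.

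RC3H1 (chromosome 1, 173931214 to 174022297, minus strand) had 170, 197 and 210 counts with DMSO and 967, 1061 and 1131 with SGC707. In normalised CPM these were 16.2, 19.3 and 18.9 with DMSO and 58.4, 66.7 and 88.1 with SGC707. Every SGC707 library stood far above every DMSO library, and SGC707 C was the highest. The group means were 18.1 ± 1.67 and 71.1 ± 15.3 normalised CPM (SD, n = 3), a 3.92-fold difference (log2 1.97). RC3H1 was chosen for this rise, so no test result is given for it. Among 10192 tested genes with a mean of at least 5 normalised CPM, 2 had a larger log2 fold change: MYC, described further on, and the readthrough locus SENP3-EIF4A1. The latter was listed at 1.43 normalised CPM in DMSO A and at 0 in DMSO B and C. It stood at 54.2 and 54.7 in SGC707 A and B but at 0.312 in SGC707 C, so the groups overlapped. It shares exons with the gene EIF4A1, so its count is uncertain. Both are named because of this rank.

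The RC3H1 transcript has a low GC content, 38.7% against a median of 48.4% over tested genes, and GC content is where SGC707 C stood apart. After a correction for GC content and length, RC3H1 stood at 16.1, 19.1 and 18.2 normalised CPM with DMSO and at 68.2, 72.0 and 69.5 with SGC707. The SGC707 libraries then differed little, with a mean of 69.9 ± 1.92 against 17.8 ± 1.55 (SD, n = 3). The log2 fold change was 1.97 again, 1.78 without SGC707 C, and 1.89 to 2.10 with any other library left out. With scaling by library totals only it was 2.61, in a scaling that moved the median of all tested genes from 0.03 to 0.69.

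RC3H2 (chromosome 9, 122844556 to 122905341), the paralog of RC3H1, did not pass the test. It stood at 95.2, 102.5 and 104.3 normalised CPM with DMSO and at 96.2, 106.3 and 134.0 with SGC707. The groups overlapped, and SGC707 C lay highest. After the GC and length correction the levels were 94.5, 102.4 and 100.2 with DMSO and 112.3, 115.6 and 103.8 with SGC707, with SGC707 C the lowest of its group. The corrected groups did not overlap, as in 14.9% of all tested genes that lay above, and the corrected difference did not pass (edgeR adjusted p = 0.302). The log2 fold change was 0.16 (95% interval -0.22 to 0.53, edgeR adjusted p = 0.721), and 0.01 without SGC707 C, so a 2-fold change lies outside the interval of the test on all libraries.

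The ratio of the paralogs does not depend on scaling between libraries. For every 100 counts of RC3H2 there were 17.0, 18.8 and 18.1 counts of RC3H1 with DMSO and 60.7, 62.7 and 65.8 with SGC707. Counted per kilobase of the longest coding transcript (11261 bases for RC3H1 and 9248 for RC3H2), RC3H1 made up 12.9% ± 0.56 of the pair with DMSO and 34.1% ± 0.91 with SGC707 (SD, n = 3). RC3H2 was thus the more abundant Roquin transcript per length in all 6 libraries. The summed level of the pair was 12.5 ± 0.66 normalised CPM per kilobase with DMSO and 18.4 ± 3.47 with SGC707 (SD, n = 3). These values rest on the RC3H1 counts that chose it and are a description.

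**Figure D2:**
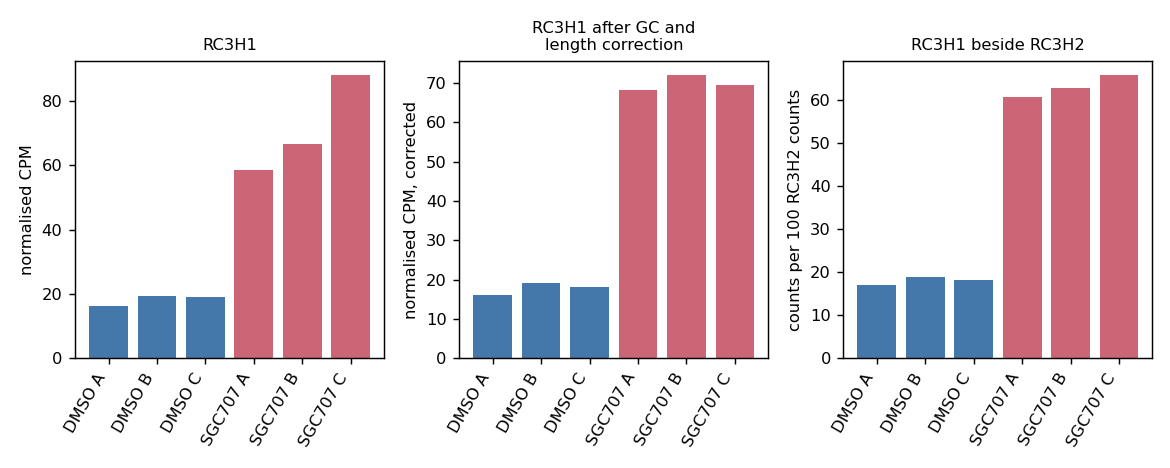
RC3H1 in each library on 3 scales: normalised CPM, normalised CPM after correction for GC content and length, and counts of RC3H1 per 100 counts of RC3H2; bars start at 0 and each is 1 library. SGC707 C is the highest bar at 88.1 normalised CPM before the correction and lies at 69.5, between SGC707 A and B, after it.

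None of the other 9 members passed the test over all genes (edgeR adjusted p 0.263 to 0.949). Of all genes tested, 0.0082% passed as higher and 0.0164% as lower. At an unadjusted p under 0.05 there were 5 lower members and 0 higher, where 7.13% of all tested genes were lower and 5.62% higher at that level. The same 5, ZFP36L1, ZFP36L2, ZC3H12A, N4BP1 and CNOT1, had all SGC707 libraries below all DMSO libraries, and 0 had them all above. Over all tested genes 9.78% lay below and 10.8% above in this way. The median log2 fold change of the 9 was -0.40, against 0.03 for all tested genes, with 3 positive and 6 negative. With DESeq2, 0 of the 9 passed and 5 were lower at an unadjusted p under 0.05, where 6.06% of all genes were.

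The edgeR count of 5 lower members, and the share of all tested genes lower at the same level, changed with the libraries used. It was 2 without DMSO A (4.0% of all tested genes), 1 when DMSO B was left out (3.73%) and 6 when DMSO C was (7.42%). Of the SGC707 libraries, leaving out A gave 2 members (6.5%), B gave 2 (4.93%) and C gave 6 (15.5%). Leaving out DMSO C also gave 1 higher member, CNOT6, where 787 of 12411 tested genes were higher. Leaving out any other library gave 0 higher members. With the GC and length correction 5 members were lower and 1, CNOT6, was higher, where 1570 and 1347 of 12196 tested genes were. With library totals only, RC3H2, N4BP1, CNOT1, CNOT6 and CNOT7 lay above without overlap, as did 49.5% of all tested genes, and ZFP36L1 lay below, as did 0.771%.

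The ZFP36 family encodes the AU-rich element binders. ZFP36L2 (chromosome 2, 43222402 to 43226609) was the most abundant of the 3. It stood at 38.7, 39.4 and 32.4 normalised CPM with DMSO and at 28.4, 30.2 and 25.2 with SGC707. The groups did not overlap, but the log2 fold change of -0.40 (95% interval -0.78 to -0.02), which was 0.30 with library totals only, did not pass (edgeR adjusted p = 0.374).

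ZFP36L1 (chromosome 14, 68787660 to 68796253) had the largest negative log2 fold change of the members and rests on few reads. It had 30, 41 and 19 counts with DMSO and 12, 5 and 16 with SGC707. In normalised CPM these were 2.86, 4.01 and 1.71 against 0.725, 0.314 and 1.25, with no overlap. The log2 fold change was -1.92 (95% interval -3.17 to -0.66, edgeR adjusted p = 0.263). Without SGC707 C it was -2.43 and passed (edgeR adjusted p = 0.0386), in a setting where 5.53% of all tested genes passed as lower. With the GC and length correction on all libraries it was -1.95 and did not pass (edgeR adjusted p = 0.0892).

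ZFP36 (chromosome 19, 39406813 to 39409412), which encodes tristetraprolin, had 38, 72 and 28 counts with DMSO and 48, 29 and 28 with SGC707. Its normalised levels were 3.62, 7.04 and 2.52 CPM with DMSO and 2.90, 1.82 and 2.18 with SGC707, so the groups overlapped and DMSO B was the high library. Its log2 fold change was -0.93 (95% interval -1.91 to 0.06, edgeR adjusted p = 0.420), and -0.41 without DMSO B.

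Of the regnase-type genes, ZC3H12A (chromosome 1, 37474552 to 37484379), which encodes Regnase-1, was scarce, at 18, 26 and 25 counts with DMSO and 19, 17 and 7 with SGC707. On the normalised scale these were 1.72, 2.54 and 2.25 CPM against 1.15, 1.07 and 0.546, with no overlap. The log2 fold change of -1.21 (95% interval -2.13 to -0.29) did not pass (edgeR adjusted p = 0.297). N4BP1 (chromosome 16, 48538726 to 48620148) was measured at higher depth, with 601 to 729 counts per library. It stood at 58.3, 63.7 and 54.1 normalised CPM with DMSO and 44.1, 41.8 and 48.9 with SGC707. Again the groups did not overlap, and the log2 fold change of -0.39 (95% interval -0.73 to -0.04), which was 0.29 with library totals only, did not pass (edgeR adjusted p = 0.348).

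Among the deadenylase subunits, CNOT1 (chromosome 16, 58519951 to 58629886), the scaffold, stood at 255.9, 273.2 and 242.4 normalised CPM with DMSO and at 169.4, 179.7 and 232.2 with SGC707. SGC707 C came closest to the DMSO libraries. The log2 fold change was -0.41 (95% interval -0.78 to -0.04, edgeR adjusted p = 0.351), and 0.25 with library totals only. Without SGC707 C it was -0.56 and passed (edgeR adjusted p = 0.0278), in a setting where 5.53% of all tested genes passed as lower. With the GC and length correction on all libraries it was -0.40 and did not pass (edgeR adjusted p = 0.0749). Raw counts of CNOT1 were 2683 to 2795 with DMSO and 2804 to 2979 with SGC707, so its lower level is relative to the other nuclear transcripts, whose counts were higher with SGC707.

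The genes of the catalytic subunits had groups that overlapped. CNOT6 (chromosome 5, 180494412 to 180578405), of the exonuclease-endonuclease-phosphatase type, stood at 65.5, 67.4 and 94.3 normalised CPM with DMSO and 85.9, 93.5 and 112.9 with SGC707. DMSO C overlapped the SGC707 libraries. Its log2 fold change was 0.36 (95% interval -0.08 to 0.81, edgeR adjusted p = 0.482), and 0.55 without DMSO C. CNOT7 (chromosome 8, 17224964 to 17246878), of the DEDD type, stood at 157.4, 152.7 and 151.3 with DMSO and 126.3, 131.5 and 219.8 with SGC707. Here SGC707 C lay above and SGC707 A and B below the DMSO libraries. Its difference on the log2 scale was 0.05 (95% interval -0.47 to 0.57; adjusted p by edgeR = 0.949), and -0.26 without SGC707 C. After the GC and length correction its SGC707 libraries stood at 147.6, 144.4 and 165.3 and its log2 fold change was -0.002. CNOT7 has the lowest GC content of the members, 35.7%, and its counts are uncertain because 2 processed pseudogenes, CNOT7P1 and CNOT7P2, resemble it and VPS37A overlaps it on the opposite strand.

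**Figure D3:**
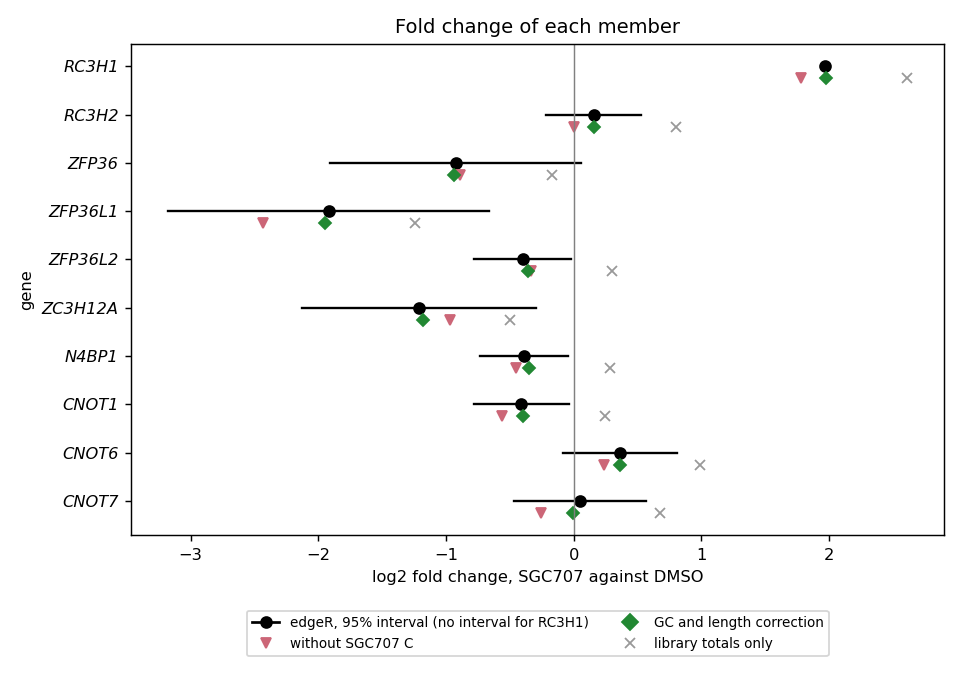
Log2 fold change of each member with SGC707 against DMSO: black points with 95% intervals from edgeR (none for RC3H1, which was chosen for its value), and coloured marks for the value without SGC707 C, after the GC and length correction, and with library totals only. RC3H1 lies between 1.78 and 2.61 on all of them, while ZFP36L2, N4BP1 and CNOT1 lie below 0 except with library totals only, where they stand at 0.30, 0.29 and 0.25.

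With library totals only, 3 of the 9 other members passed as higher: RC3H2 (log2 fold change 0.80), CNOT6 (0.99) and CNOT7 (0.67), each with an edgeR adjusted p of at most 0.0479. In the same setting 21.1% of all tested genes passed as higher. The median over tested genes was 0.69 in that scaling, so relative to the median CNOT7 lay slightly below it and ZFP36L2, N4BP1 and CNOT1 lay further below. ZFP36L1 (-1.24), ZC3H12A (-0.50) and ZFP36 (-0.17) were negative on this scale too. Directions of ZFP36L2, N4BP1 and CNOT1 therefore hold relative to other nuclear transcripts and turn on a scale of all reads. CNOT1 is also overlapped by SETD6 on the opposite strand, and no source used here gives the strand setting.

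Levels of different members were compared per kilobase of transcript. With DMSO the order was CNOT1 (30.4 normalised CPM per kilobase), CNOT7 (22.2), CNOT6 (12.01), RC3H2 (10.9), ZFP36L2 (9.97), N4BP1 (8.26), ZFP36 (2.46), RC3H1 (1.61), ZFP36L1 (0.897) and ZC3H12A (0.808). The libraries of CNOT6 and RC3H2 overlapped, as did those of RC3H2 and ZFP36L2, of ZFP36L2 and N4BP1, of ZFP36 and RC3H1, and of ZFP36L1 and ZC3H12A. With SGC707, CNOT7 (23.0) and CNOT1 (22.9) headed the order with overlapping libraries, and RC3H1 (6.31) lay beside N4BP1 (6.32), also with overlap. RC3H1 thus moved from the level of the scarce members to that of N4BP1 and ZFP36L2 (7.55). The lengths are those of the longest annotated coding transcript, which need not be the form these cells use. In bulk RNA, fewer cells with a transcript and less of it per cell cannot be told apart.

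Of the genes beside RC3H1 on chromosome 1, 5 are described, and none of them passed the test. On the side of lower coordinates the log2 fold change of ZBTB37, a zinc-finger gene, was 0.98 (edgeR adjusted p = 0.579) and that of the centromere protein gene CENPL was 0.25 (adjusted p = 0.678). ZBTB37 was at 31.5, 46.4 and 4.32 normalised CPM with DMSO and at 55.2, 36.0 and 70.5 with SGC707, so its value turned on DMSO C and was 0.47 without it. On the other side, RABGAP1L had a log2 fold change of 0.97 (adjusted p = 0.422), with 384, 159 and 524 counts with SGC707 and 114 to 154 with DMSO, and it was 0.40 without SGC707 C. CACYBP (0.02) and MRPS14 (0.05) stood close to 0, but they lie 976.9 kb and 988.5 kb from RC3H1. RABGAP1L lies at 137.1 kb and CENPL at 106.5 kb. The nearest of these 5 genes, ZBTB37, lies 27.7 kb from RC3H1. RC3H1 was chosen for its rise, so its difference is not compared in size with theirs.

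Genes whose pattern over the 6 libraries was most like that of RC3H1 were sought among 10186 genes with a mean of at least 5 normalised CPM and no 0. By Pearson correlation of log2 levels these were SPTSSB (0.997), ZKSCAN7 (0.993), OTUD7B (0.990), MTX2 (0.986) and SPG21 (0.985). Their log2 fold changes were 0.54, 1.57, 0.57, 0.64 and 0.59; a likeness to RC3H1 fixes the direction, so these carry no test. ZKSCAN7, a zinc-finger gene, came nearest in size, at 2.86, 3.71 and 3.87 normalised CPM with DMSO and 9.37, 9.12 and 12.5 with SGC707. The 6 libraries share their group difference and the GC trend of SGC707 C, so the correlations are a description too.

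The other genes of mRNA decay and of described targets were taken from 9 lists holding 123 genes beside the members, of which 110 were tested. None passed over all genes in the edgeR test on all 6 libraries with TMM scaling. At an unadjusted p under 0.05, 8 were higher and 15 lower, where 5.62% and 7.13% of all tested genes were, and the median log2 fold change was 0.04, against 0.03 for all tested genes. DESeq2 called 2 higher (DCP2 and MYC) and 4 lower (among them CNOT3, CNOT4 and EGR1), against 0.392% and 2.01% of all genes with an adjusted p. With library totals only, edgeR called 35 higher, in the setting that called 21.1% of all tested genes. Without SGC707 C, edgeR called 4 higher (EXOSC5, LSM4, PIM1 and SMG5) and 11 lower (among them CNOT3, CNOT4, DCP1B, ELAVL4, EXOSC10, HIF1A, PATL1, PPP1R10, TOB1 and UPF3B), against 3.73% and 5.53% of all tested genes. Without SGC707 A it called MYC as higher and no other gene of the lists, against 0.0407% of all tested genes.

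Of the 12 other deadenylase genes, 7 had positive and 5 negative log2 fold changes (median 0.06). CNOT3, which encodes a non-catalytic CCR4-NOT subunit, stood at 85.5, 91.1 and 61.6 normalised CPM with DMSO and at 42.8, 39.9 and 34.9 with SGC707. CNOT4, which encodes the ubiquitin ligase of the complex, stood at 99.2, 84.1 and 60.6 against 33.8, 34.8 and 46.8. Both had groups that did not overlap. The log2 fold change of CNOT3 was -1.02 (edgeR adjusted p = 0.166 and DESeq2 adjusted p = 9.87e-04). That of CNOT4 was -1.08 (edgeR adjusted p = 0.187 and DESeq2 adjusted p = 0.00335). With library totals only these values were -0.30 and -0.41. The 2 genes are named for having the smallest unadjusted p of this list. The 5 tested BTG and TOB adaptors, which link deadenylases to mRNAs, had a median of -0.08, with TOB1 at -0.31 and BTG1 at -0.13 (0.35 and 0.51 with library totals only).

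Downstream of deadenylation, the 19 genes of decapping and 5′ to 3′ decay had a median of 0.22, with 11 positive and 8 negative. DCP2, the decapping enzyme gene, stood at 54.7, 53.3 and 27.4 normalised CPM with DMSO and at 87.4, 88.1 and 115.0 with SGC707, without overlap. Its log2 fold change was 1.10 (edgeR adjusted p = 0.233; DESeq2 adjusted p = 0.017). DCP1B, which encodes a cofactor of DCP2, had a value of -0.74 on the log2 scale (edgeR adjusted p = 0.273), opposite in sign. The 18 exosome and SKI genes, of 3′ to 5′ decay, had a median of 0.12, with 12 positive and 6 negative, EXOSC7 at 0.80 and the nuclear exosome nuclease gene EXOSC10 at -0.57 (0.10 with library totals only).

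Of the regnase relatives, 4 of 5 were tested, with a median of 0.003, KHNYN at 0.52 and NYNRIN at 0.10. Nonsense-mediated decay, whose helicase UPF1 works with Regnase-1, gave a median of -0.25 over 10 genes. Of these, 0 were higher and 3 lower at an unadjusted p under 0.05, where 5.62% and 7.13% of all tested genes were. Among the 3 was SMG9 at -0.77 (edgeR adjusted p = 0.262). At the same level the 18 exosome and SKI genes had 4 higher and 1 lower, and the 19 decapping genes 2 and 2. The 24 other mRNA-binding proteins had a median of 0.08. The neuronal genes ELAVL4 (-0.80) and ELAVL3 (-0.58), whose proteins bind AU-rich elements and stabilise mRNAs, were the 2 with the smallest p (edgeR adjusted p = 0.262 and 0.266), and ELAVL3 stood at 0.12 with library totals only.

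Transcripts described elsewhere as bound by Roquin or Regnase-1 were mostly scarce in these cells: 7 of 14 were tested, and 5 were at 0 counts in every library. The 7 had a median log2 fold change of -0.22, with 2 positive and 5 negative. PPP1R10, a regulatory subunit gene of protein phosphatase 1, stood at 124.0, 131.4 and 101.1 normalised CPM with DMSO and 80.9, 75.9 and 86.7 with SGC707 (log2 fold change -0.55, edgeR adjusted p = 0.262, and 0.13 with library totals only). REL, an NF-κB subunit gene, had overlapping groups and a log2 fold change of -1.26 (0.326). Of 17 described ZFP36 targets, 11 were tested, with a median of 0.07, 7 positive and 4 negative. EGR1, an immediate early gene, stood at 35.6, 37.3 and 17.6 normalised CPM with DMSO and 12.4, 9.81 and 6.62 with SGC707 (log2 fold change -1.64, edgeR adjusted p = 0.187; DESeq2 adjusted p = 7.21e-04).

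MYC, another described ZFP36 target, separated the SGC707 libraries from each other. It had 23, 29 and 32 counts with DMSO, 33 in SGC707 A, and 725 and 691 in SGC707 B and C. Its log2 fold change was 3.67 (edgeR adjusted p = 0.251), and SGC707 A overlapped the DMSO libraries. RC3H1 showed no such separation, with 967 counts in SGC707 A beside 1061 and 1131 in B and C.

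**Figure D4:**
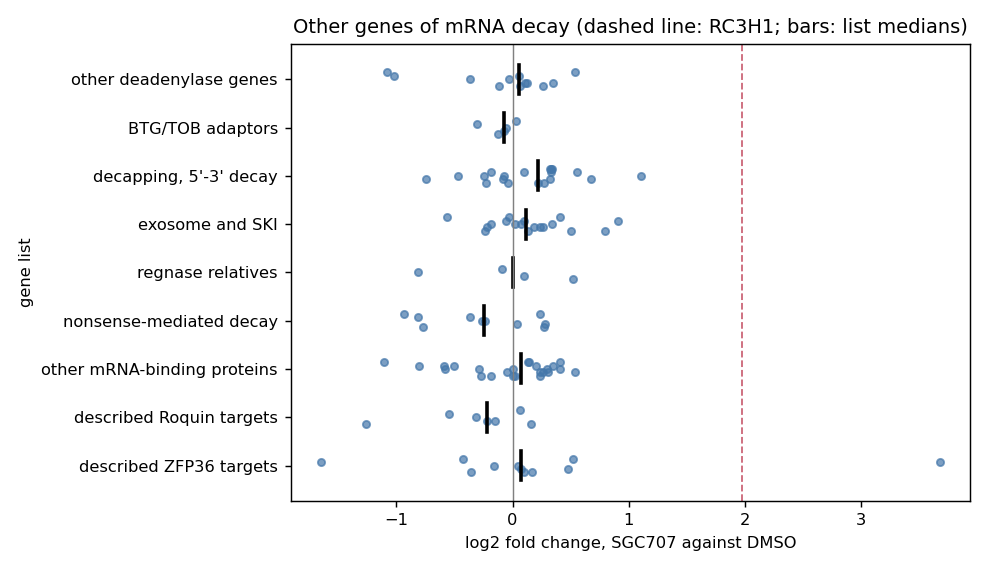
Log2 fold change with SGC707 against DMSO of the tested genes of 9 lists of mRNA decay and described targets; each point is 1 gene, black bars are list medians, and the dashed line marks RC3H1 at 1.97. All list medians lie between -0.25 and 0.22, and MYC, at 3.67, is the only point beyond the dashed line.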

How the data were processed

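Transcript levels were measured by RNA sequencing in 6 libraries, grouped by the treatment named in the labels. The authors deposited 1 table of whole-number counts by gene symbol; its column sums differ, as in unscaled counts. Per the submitters' processing notes, HISAT2, StringTie and GRCh38 were used. Tool versions, gene annotation, strand option and the counting of shared reads: not given in the sources used here.

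Counts were fitted with edgeR 4.0.16 in R 4.3.3 (filterByExpr, TMM scaling, robust quasi-likelihood test, no covariate) over 12196 of 19610 genes. P-values were adjusted by Benjamini-Hochberg over all of them, with a threshold of 0.05. Normalised CPM uses the TMM factors. Positions, transcript lengths, GC content and 3′UTR sites came from GENCODE release 29 on GRCh38, which matched 19294 symbols directly and 241 through a synonym, with 75 unmatched; the longest protein-coding transcript was used. The miR-448 sequence came from RefSeq (GRCh38.p14).

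The members and gene lists were chosen with earlier results of these data known. Named genes are the members, from each list 2 genes with the smallest unadjusted p and a mean of at least 5 normalised CPM, the 3 nearest tested protein-coding genes on each side of RC3H1, and 5 genes with the most similar pattern; any other gene was picked with its values in view. A few genes under this rule are not reported here. The alternatives tried were RLE factors, library totals only, no mitochondrial genes, no filter or a stricter one (1 CPM in 3 libraries, mean count 50), DESeq2 1.42.0, limma-voom (limma 3.58.1), each library left out, the replicate letter as a block, and lowess correction (span 0.3) for GC content and length, alone and with the block. The procedure was tested on simulated counts, which held neither the GC trend of SGC707 C nor the difference in mitochondrial share. Figures were drawn with matplotlib 3.10.9.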

Additional observations from a re-analysis of the deposited data

How the results depend on the processing

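RC3H1 had a log2 fold change of 1.97 on all libraries, 2.61 with library totals only, and 1.78 to 2.10 with each library left out. The count of genes passing over the whole table, 1 higher and 2 lower, became 2574 and 31 under scaling to library totals alone, 0 and 0 with the replicate block, 9 and 54 with the GC and length correction, 1 and 1 with both, 1 and 5 with no filter, 47 and 241 with DESeq2, 0 and 2 with limma-voom, 0 and 0 at an adjusted p under 0.01, and 0 to 462 and 0 to 685 with 1 library left out (the highest of both without SGC707 C). Of the other 9 members, 0 passed in either direction except 3 higher with library totals only; with 1 library left out, 0 passed as higher and 0 to 2 as lower. Their count above all DMSO libraries was 0 (10.8% of all tested genes), 5 with library totals only (49.5%) and 1, RC3H2, after the correction (14.9%); that below was 5 (9.78%), and 1 with library totals only (0.771%). Pathway genes passing, 0 and 0, were 35 higher with library totals only, 2 higher and 4 lower with DESeq2, and 0 to 4 higher and 0 to 11 lower with 1 library left out.

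Signs turned with library totals only for ZFP36L2 (0.30), N4BP1 (0.29), CNOT1 (0.25), TOB1 (0.35), BTG1 (0.51), EXOSC10 (0.10), ELAVL3 (0.12) and PPP1R10 (0.13). They turned with the GC and length correction for CNOT7 (-0.002), CACYBP (-0.050) and MRPS14 (-0.037), with the same correction and block for CNOT7 (-0.004), CACYBP (-0.046) and MRPS14 (-0.037), and for CNOT7 with limma-voom (-0.004). With 1 library left out, log2 fold changes ranged from -0.26 to 0.19 for CNOT7, -0.305 to 0.028 for BTG1, -0.10 to 0.40 for NYNRIN, -0.096 to 0.093 for CACYBP and -0.061 to 0.131 for MRPS14. The causes were not tested beyond the construction of each setting.

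The replicate letters share no stated origin: deviations of same-lettered libraries correlated at 0.08, -0.02 and 0.10, so the block is given only here. With it, at an unadjusted p under 0.05, 3 of the other members were lower (ZFP36L1, ZFP36L2 and ZC3H12A) and 1 higher (CNOT6), where 7.53% and 5.05% of all tested genes were. The stricter filter left ZFP36, ZFP36L1 and ZC3H12A untested, and their counts of 5 to 72 limit what could be detected.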
